A study of Mus musculus with 45 samples.

Results

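The genes described here are 43 known targets of the transcription factor ATF4 and genes of amino acid supply, out of 55385 genes in the tables. They were chosen by symbol, with earlier results of these data known. They fall into 13 stress factors, 5 serine and one-carbon enzymes, 7 other amino acid enzymes, 6 amino acid transporters and 12 cytosolic tRNA synthetases. In the E4.5 inner cell mass (ICM), 36 of the 43 were lower when GABPA was targeted for degradation (38.5% of all genes tested were lower) and 4 were higher (38.4% of all genes). In embryonic stem cells grown in 2i/LIF (2iES cells) 23 of 39 tested were lower (28.1% of all genes) and 5 were higher (26.5%). At the late two-cell stage 5 of 40 tested passed the test, all lower (12.5%, against 7.25% of all genes). In the morula 1 of 37 passed, *Nupr1*, which was higher (0.161% of all genes).

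RNA-seq was made from mouse late two-cell embryos (3 libraries with DMSO, 3 with dTAG13) and, with 2 libraries per treatment, from morulae, the E4.5 ICM and 2iES cells. All embryos and cells, controls included, carried *Gabpa* dTAG/dTAG, a homozygous degron tag on the ETS factor GABPA, and the dTAG13 molecule directs the tagged protein to the proteasome. Embryos were fertilized in vitro and kept in KSOM with 1 µM dTAG13 or with DMSO, from 6 to 30 h post fertilization (hpf) for late two-cell embryos, from 42 hpf for morulae and from 84 to 100 hpf for the E4.5 ICM. The ICM was isolated by immunosurgery, which lyses the outer trophectoderm (TE), and holds both epiblast (EPI) and primitive endoderm (PrE). The 2iES cells were derived from the ES-E14 line by knock-in of the tag and were treated with 0.5 µM dTAG13 for 24 h. No untagged sample treated with dTAG13 was among the RNA libraries used here, so an effect of the molecule itself and an effect of GABPA loss cannot be told apart.

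ATF4 is the main effector of the integrated stress response. When uncharged tRNA, unfolded protein in the endoplasmic reticulum, mitochondrial stress or lack of haem activates a kinase of eIF2α, global translation falls while the *Atf4* mRNA is translated more efficiently, so the level of *Atf4* mRNA is only a partial measure of ATF4 activity. The ATF4 protein then pairs with C/EBP family members and induces enzymes that make serine, asparagine and proline, transporters that import amino acids, and enzymes that charge tRNAs, together with stress factors such as CHOP (encoded by *Ddit3*) that feed back on the response.

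Expected counts summed to between 9457933 and 12382705 per morula library and between 18266057 and 27660132 per library of the other stages. The *Gabpa* mRNA itself was higher with dTAG13, at 10.1 and 11.2 TPM (transcript abundance scaled to gene length and depth) with DMSO against 27.5 and 27.3 TPM with dTAG13 in the ICM, and it passed the test in late two-cell embryos and 2iES cells too, but not in morulae. The degron acts on protein, so the mRNA level is no check of depletion. Replicates of the ICM differed little beyond sampling noise (a variance of 1.62 and 1.67 times that of sampling, against 2.85 to 16.1 in the other groups). The study calls its RNA-seq replicates biological, while the labels do not name the embryo pools or cultures behind them, and p-values measure the spread between these libraries.

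Promoter sequences are shown because ATF4 and GABPA read different short motifs. The RefSeq sequences used here (GRCm38.p6) run from 250 bases before to 50 bases after a transcription start, and held 42 windows for 36 of the 43 genes. The letters TGATGNAA, the core of the C/EBP-ATF response element, were searched on both strands and occurred in 14 of these 42 windows (33.3%), against 3.97% of 32851 windows of all genes. The letters CCGGAAG, a core bound by ETS factors such as GABPA, were searched likewise and occurred in 7 of 42 (16.7%), against 8.86% of all windows. Those windows include genes not tested here. Of the listed genes 7 held CCGGAAG and 29 did not. Of all genes with a window that were tested in the ICM, 2130 held it and 8796 did not, a similar proportion. *Gars* alone of the genes held both. The genes were listed as ATF4 targets, so the share with TGATGNAA describes the list and is not a finding. Below, capitals mark the motif as read on the strand of the gene (TTGCATCA and CTTCCGG are the reverse complements). The promoters of *Asns* (chr6:7693160-7693459, minus strand) and *Chac1* (chr2:119350992-119351291, plus strand), whose transcripts were strongly lower in both ICM and 2iES cells, hold TGATGNAA, and so do the stretches of *Pycr1* (chr11:120643829-120643866, minus strand), *Nupr1* (chr7:126625558-126625595, minus strand) and *Trib3* (chr2:152344024-152344061, minus strand).
Asns: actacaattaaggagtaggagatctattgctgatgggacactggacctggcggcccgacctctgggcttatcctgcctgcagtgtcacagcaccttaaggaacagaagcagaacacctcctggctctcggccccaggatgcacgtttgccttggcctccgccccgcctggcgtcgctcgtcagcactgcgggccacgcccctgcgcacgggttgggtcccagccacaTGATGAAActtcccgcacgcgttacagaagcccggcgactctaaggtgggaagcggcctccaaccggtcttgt
Chac1: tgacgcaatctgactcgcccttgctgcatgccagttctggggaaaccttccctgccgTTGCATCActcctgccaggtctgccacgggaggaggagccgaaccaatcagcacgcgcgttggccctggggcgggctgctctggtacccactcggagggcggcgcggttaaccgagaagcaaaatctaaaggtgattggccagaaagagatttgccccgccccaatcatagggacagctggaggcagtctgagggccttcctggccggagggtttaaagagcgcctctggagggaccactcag
Pycr1: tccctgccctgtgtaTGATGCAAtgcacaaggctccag
Nupr1: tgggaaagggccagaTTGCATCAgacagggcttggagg
Trib3: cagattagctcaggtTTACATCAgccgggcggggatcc
The promoters of *Mars1* (chr10:127311737-127312036, minus strand) and *Shmt2* (chr10:127522395-127522694, minus strand) and the stretch of *Psat1* (chr19:15924589-15924625, minus strand) hold CCGGAAG.
Mars1: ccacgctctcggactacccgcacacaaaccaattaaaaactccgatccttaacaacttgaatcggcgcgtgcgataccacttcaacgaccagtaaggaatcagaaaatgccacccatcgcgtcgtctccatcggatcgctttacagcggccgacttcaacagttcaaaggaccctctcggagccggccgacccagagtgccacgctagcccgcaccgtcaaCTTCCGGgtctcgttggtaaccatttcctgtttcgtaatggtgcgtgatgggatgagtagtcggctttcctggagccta
Shmt2: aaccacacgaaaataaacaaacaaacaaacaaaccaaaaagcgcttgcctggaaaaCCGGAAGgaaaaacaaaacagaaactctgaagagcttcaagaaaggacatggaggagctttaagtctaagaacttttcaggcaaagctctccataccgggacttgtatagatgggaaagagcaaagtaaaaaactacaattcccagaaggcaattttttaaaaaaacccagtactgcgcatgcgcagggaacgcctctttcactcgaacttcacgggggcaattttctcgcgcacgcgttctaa
Psat1: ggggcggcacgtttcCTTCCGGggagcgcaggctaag

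In the DMSO libraries the module was low in the first 2 stages and highest in the ICM. Of the 43 genes, 34 had their highest mean level in the ICM, 3 at the late two-cell stage, 4 in the morula and 2 in 2iES cells. The median of the mean levels was 8.29 TPM at the late two-cell stage, 8.86 TPM in the morula, 86.4 TPM in the ICM and 22.0 TPM in 2iES cells. A gene was called when the Benjamini-Hochberg adjusted p of edgeR's quasi-likelihood test was under 0.05, the fold change was at least 2 and the mean FPKM was at least 1 in 1 of the groups. From late two-cell to morula, 12 of 43 were called higher (22.6% of all genes tested) and 5 lower (27.7%). From morula to ICM, 32 were called higher (16.0% of all genes) and 2 lower (13.2%), with a median log2 difference of 2.48 against 0.00 for all genes. In 2iES cells against the ICM, 0 were called higher (12.0% of all genes) and 27 lower (12.7%), with a median of -1.23 against 0.00. For those 0 calls, 4 genes were higher at an unadjusted p under 0.05 in edgeR, and DESeq2 also called 0. Scaling by library totals alone shifted the median of all genes by -0.33 in this comparison and the share of calls that were higher from 48.6% to 24.6%, and still called none of the 43 higher. A stage and its day of collection or library preparation cannot be told apart. In whole-embryo or ICM RNA, fewer cells of a type and less RNA per cell cannot be told apart either.

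*Atf4* itself kept between 37.8 and 116 TPM in the DMSO libraries. Its mRNA stood at 105, 107 and 116 TPM in the late two-cell DMSO libraries, at 51.9 and 37.8 TPM in the morula, at 105 and 106 TPM in the ICM and at 67.3 and 58.9 TPM in 2iES cells. The morula was lower than the late two-cell stage (log2 difference -0.91 ± 0.16 (SE), adjusted p = 0.000278) and the ICM higher than the morula (0.87 ± 0.17, adjusted p = 0.00132). The difference between ICM and 2iES cells did not pass the test from the counts (-0.13 ± 0.17, adjusted p = 0.571, edgeR for all), though the TPM values of 2iES cells were lower without overlap.

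Some targets of ATF4 spanned a wider range. *Asns*, which encodes asparagine synthetase, had DMSO values of 5.19, 4.84 and 3.26 TPM at the late two-cell stage, 7.25 and 7.00 TPM in the morula, 558 and 561 TPM in the ICM and 456 and 512 TPM in 2iES cells. ICM and 2iES values were both far above those of the earlier stages. The difference of 2iES cells from the ICM in the counts did not pass the test (log2 difference 0.41 ± 0.17, adjusted p = 0.0718). Its sign is opposite to that of the mean TPM, which was 559 in the ICM and 484 in 2iES cells. *Nupr1*, a small stress-induced chromatin protein, had 32.4, 41.3 and 58.0 TPM at the late two-cell stage, 4.61 and 3.54 TPM in the morula, 500 and 555 TPM in the ICM and 57.7 and 96.3 TPM in 2iES cells. The groups do not overlap except those of late two-cell embryos and 2iES cells. *Slc7a3*, the cationic amino acid transporter CAT3, was near 0 at the first 2 stages (0.12 to 0.33 TPM and 0 to 0.35 TPM) and at 101 and 99.5 TPM in the ICM and 51.0 and 46.7 TPM in 2iES cells.

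Among the enzymes, *Psat1*, which makes phosphoserine, was the most abundant serine enzyme at every stage, with mean DMSO levels of 153, 216, 254 and 62.4 TPM in the order of stages. *Phgdh*, the first enzyme of the same pathway, was highest in the morula (102 and 89.6 TPM), and fell from morula to ICM by 0.85 on the log2 scale (adjusted p = 0.00116). *Phgdh* shares 56.3% of its 31-base words with other genes, mainly the pseudogene *Gm7901*, so its reads may be divided between them. All 12 synthetases were called higher in the ICM than in the morula, by 1.29 (*Eprs*) to 3.09 (*Cars*) on the log2 scale, and 11 of 12 were called lower in 2iES cells than in the ICM. *Eprs*, the bifunctional glutamyl-prolyl synthetase, passed the test there with -0.47 ± 0.15 from the counts (adjusted p = 0.0219). Its TPM went the other way, with 117 and 118 in the ICM and 187 and 163 in 2iES cells.

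**Figure D1:**
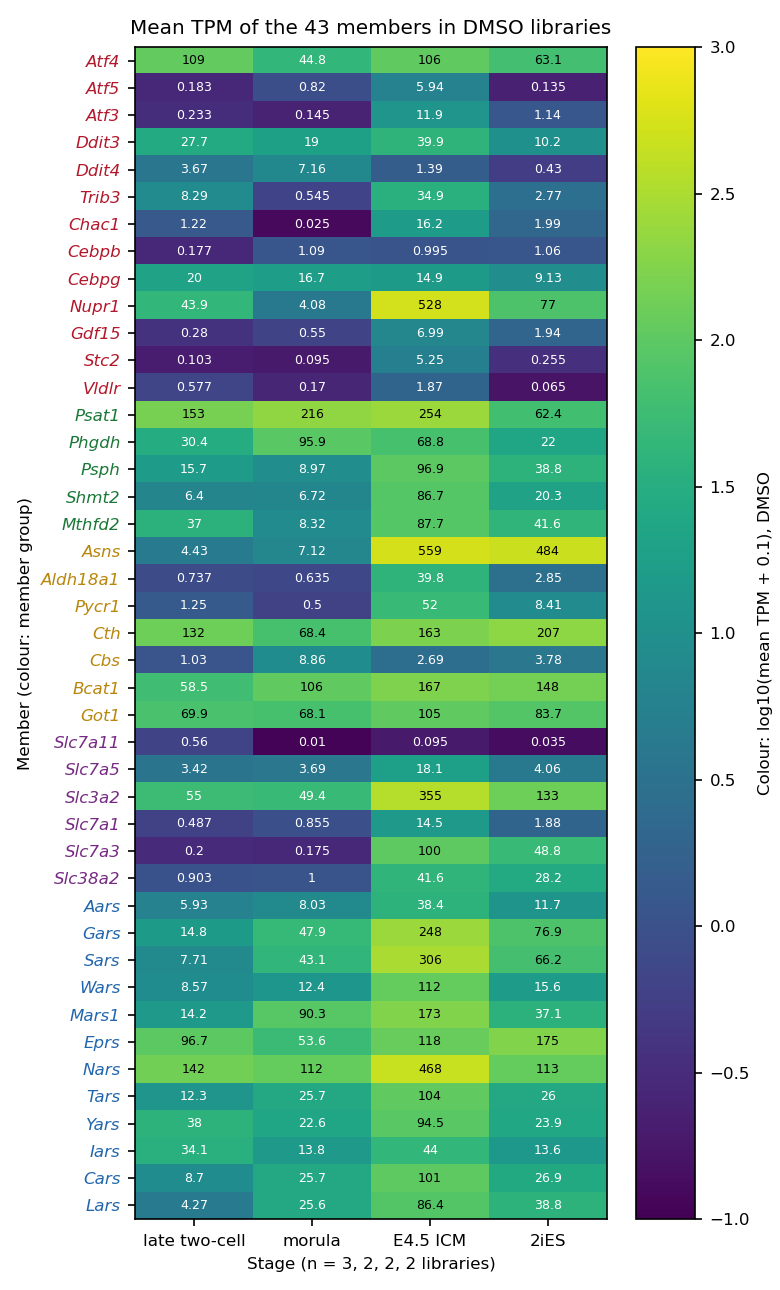
Mean TPM of each of the 43 genes (rows, names coloured by gene group) in the DMSO libraries of 4 stages (columns; n = 3, 2, 2 and 2), with the value printed in each cell and the colour on a log10 scale. The ICM column holds the highest level for 34 of 43 genes, and *Asns* rises from 7.12 TPM in the morula to 559 TPM in the ICM.

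At the late two-cell stage 12.5% of the genes tested were lower by adjusted p. None of the 40 genes tested was called higher (0.476% of all genes) and 2 were called lower (3.63%), and by adjusted p alone 0 were higher (1.32% of all genes) and 5 lower (7.25%). The median log2 fold change was 0.00, against 0.02 over all 17421 genes tested. For the 0 higher genes, edgeR gave 4 at an unadjusted p under 0.05 and DESeq2 gave 3 by adjusted p. *Mars1*, methionyl-tRNA synthetase, had 17.4, 11.0 and 14.1 TPM with DMSO and 4.46, 4.73 and 5.72 TPM with dTAG13. The groups do not overlap, and the counts gave a log2 fold change of -1.42 ± 0.26 (adjusted p = 0.00597). *Cars*, cysteinyl-tRNA synthetase, had 8.98, 7.40 and 9.72 TPM with DMSO and 5.22, 5.24 and 4.07 TPM with dTAG13, with a log2 fold change of -1.28 ± 0.22 from the counts (adjusted p = 0.00442) and -0.85 from the mean TPM.

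The other 3 genes that passed at this stage changed by less than 2-fold. *Phgdh* changed by -0.83 (adjusted p = 0.00323), *Psph*, the phosphatase that completes serine synthesis, by -0.77 (adjusted p = 0.0210) and *Nars*, asparaginyl-tRNA synthetase, by -0.47 (adjusted p = 0.00398). *Nars* had 148, 139 and 138 TPM with DMSO and 107, 108 and 112 TPM with dTAG13. *Psph* has 10.4% of its exons antisense to *Cct6a*, without strand the reads of such overlaps cannot be assigned, and it did not pass without either DMSO replicate 1 or 2 or any single dTAG13 replicate (-0.80 to -0.66). *Atf4* had 102, 91.2 and 111 TPM with dTAG13, overlapping its DMSO values (log2 fold change -0.22 ± 0.10, adjusted p = 0.207). *Psat1* had 138, 147 and 175 TPM with DMSO and 171, 156 and 166 TPM with dTAG13, *Cth* (cystathionine gamma-lyase) 140, 123 and 134 against 145, 129 and 145 TPM, and *Slc3a2* 60.5, 46.8 and 57.8 against 54.8, 53.7 and 58.2 TPM. None of these 3 passed the test. Markers of two-cell embryos summed to 210 to 547 TPM with DMSO and 338 to 649 TPM with dTAG13, and none of 8 tested passed. Cumulus cell markers summed to 3.46 to 5.41 TPM against 6.44 to 11.4 TPM, and of 2 tested 1 was higher. The part of these markers in the values at this stage was not tested.

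In the morula, 1 of 37 genes tested was called higher (0.154% of all genes) and 0 lower (0.198%), and the counts by adjusted p alone were the same (0.161% and 0.205% of all genes). *Nupr1* had 4.61 and 3.54 TPM with DMSO and 14.5 and 15.1 TPM with dTAG13, a log2 fold change of 1.95 ± 0.35 (adjusted p = 0.0239). Without DMSO replicate 1 it no longer passed (2.11). For the 0 lower genes, edgeR gave 1 at an unadjusted p under 0.05 and DESeq2 0 by adjusted p. *Atf4* had 51.9 and 37.8 TPM with DMSO and 46.1 and 36.0 TPM with dTAG13, and *Psat1* 194 and 237 against 302 and 189 TPM. Both overlap between the groups. The median log2 fold change of the genes was 0.01 against -0.02 over all 13667 genes, and these libraries were the shallowest.

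**Figure D2:**
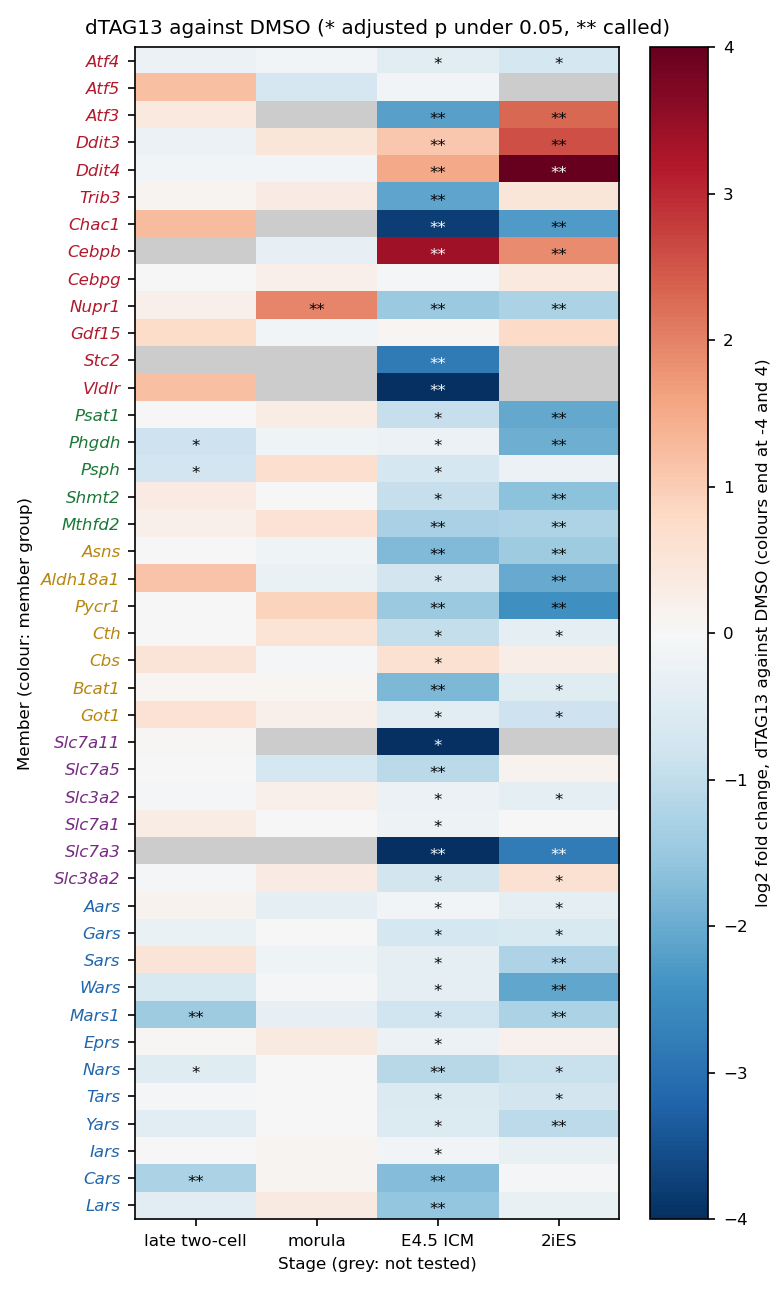
Log2 fold change with dTAG13 against DMSO from edgeR for each gene (rows) at each stage (columns), with 1 asterisk for an adjusted p under 0.05, 2 for a called gene and grey for a gene not tested. The first 2 columns are pale with 5 and 1 genes past the test, while 40 of 43 passed in the ICM and 28 of 39 in 2iES cells.

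In the E4.5 ICM most genes of the module were lower. Of 43 genes tested, 36 were lower by adjusted p (83.7%, against 38.5% of all genes) and 4 higher (9.3%, against 38.4%), and 15 were called lower (13.2% of all genes) and 3 higher (12.1%). The median log2 fold change was -0.73, against 0.01 over all 15840 genes tested. All 5 serine and one-carbon enzymes, all 6 transporters and all 12 synthetases were lower, as were 6 of 7 other enzymes and 7 of 13 stress factors. The spread between ICM replicates was small (biological coefficient of variation 0.0237, against 0.159 to 0.284 at the other stages), so changes as small as -0.10 passed. In a fit of all 18 libraries, which share 1 estimate of the spread, 29 of these 40 genes passed, with 3 still called higher and 15 lower. The 11 that did not pass there were *Phgdh*, *Cbs*, *Got1*, *Slc3a2*, *Slc7a1*, *Slc38a2*, *Aars*, *Sars*, *Wars*, *Eprs* and *Iars*.

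The cell type markers of the ICM libraries moved with the treatment as well. All 10 TE markers listed were higher with dTAG13, with a summed level of 1361 to 1382 TPM with DMSO and 3471 to 3489 TPM with dTAG13. With DMSO, 5 of the 10 stayed under 1 TPM in both libraries, so the sum rests on the others and is no measure of TE content. *Krt18*, a keratin of the TE, had 22.8 and 24.9 TPM against 476 and 481 TPM. All 10 ICM and EPI markers were lower (summed 865 to 888 TPM against 501 to 510 TPM), and of 9 PrE markers 6 were higher and 2 lower (578 to 587 TPM against 1098 to 1108 TPM). None of these markers was at 0 in all libraries of either group, while markers of cumulus cells summed to 0.78 to 0.93 TPM and those of two-cell embryos to 1.88 to 3.31 TPM. The part of these shifts in the values of the module was not tested.

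Stress factors of the ICM went both ways. *Atf4* had 105 and 106 TPM with DMSO and 82.2 and 81.1 TPM with dTAG13, a log2 fold change of -0.42 ± 0.03 (adjusted p = 8.45e-14). Several of its targets had larger fold changes. *Chac1*, which degrades glutathione, had 15.9 and 16.6 TPM with DMSO and 1.09 and 1.35 TPM with dTAG13 (-3.77 ± 0.14, adjusted p = 1.06e-23). *Trib3*, a pseudokinase that restrains ATF4 and CHOP, had 33.9 and 35.9 TPM against 7.40 and 9.23 TPM (-2.11 ± 0.07, adjusted p = 2.65e-25). *Atf3*, another stress-induced bZIP factor, had 11.6 and 12.2 TPM against 3.15 and 2.29 TPM (-2.17 ± 0.13, adjusted p = 4.56e-18). None of these groups overlap.

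*Nupr1* had 500 and 555 TPM with DMSO and 191 and 193 TPM with dTAG13 (-1.48 ± 0.04, adjusted p = 2.27e-30), and remained the most abundant stress factor. *Stc2*, a secreted glycoprotein, had 5.27 and 5.24 TPM against 0.50 and 1.05 TPM (-2.84 ± 0.16, adjusted p = 1.79e-18). *Vldlr*, a lipoprotein receptor, had 1.44 and 2.30 TPM against 0.01 and 0.02 TPM, and rests on 211 counts with DMSO and 3 with dTAG13, a ratio of 0.0154 with a 95% counting interval of 0.00314 to 0.0455. Such intervals cover counting error only. Against these falls, 3 factors rose. *Ddit3* had 38.9 and 40.9 TPM with DMSO and 84.9 and 86.9 TPM with dTAG13 (1.07 ± 0.06, adjusted p = 2.17e-18).

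*Ddit4*, an inhibitor of mTORC1 signalling, had 1.31 and 1.46 TPM with DMSO and 3.30 and 4.94 TPM with dTAG13 (1.53 ± 0.21, adjusted p = 5.12e-08). *Cebpb*, a C/EBP factor, had 1.19 and 0.80 TPM against 9.93 and 11.6 TPM (3.38 ± 0.19, adjusted p = 1.87e-18). A share of 20.7% of the *Cebpb* exons lies antisense to *Tmem189*, and *Ddit3* overlaps *Mars1* at their 3′ ends over 4.73% of its exons, so reads of these stretches cannot be assigned. The remaining 3 stress factors, *Atf5*, *Cebpg* and *Gdf15*, did not pass the test, with log2 fold changes of -0.11 to 0.07.

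All serine and one-carbon enzymes were lower in the ICM. *Psat1* had 257 and 252 TPM with DMSO and 159 and 156 TPM with dTAG13, without overlap (-0.91 ± 0.03, adjusted p = 8.26e-28). The mitochondrial folate enzyme *Mthfd2* was the only one of the 5 to be called (-1.30 ± 0.04, mean 87.7 against 36.9 TPM), and *Shmt2*, which splits serine in mitochondria, followed with -0.91 ± 0.04. The changes of *Psph* (-0.71 ± 0.04) and *Phgdh* (-0.22 ± 0.04) were smaller. The summed level of the 5 was 590 to 599 TPM with DMSO and 362 to 365 TPM with dTAG13.

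Among the other enzymes, *Asns* changed most in absolute level. It had 558 and 561 TPM with DMSO and 170 and 169 TPM with dTAG13 (-1.77 ± 0.02, adjusted p = 5.32e-38). *Bcat1*, the cytosolic branched-chain aminotransferase, had 166 and 167 TPM against 47.8 and 49.0 TPM (-1.81 ± 0.03, adjusted p = 4.37e-35). The proline enzymes *Pycr1* and *Aldh18a1* were lower by -1.49 ± 0.05 and -0.74 ± 0.04, *Cth* by -0.94 ± 0.03 and *Got1*, cytosolic aspartate aminotransferase, by -0.42 ± 0.03. *Cbs*, the enzyme before *Cth* in transsulfuration, was the exception with 2.87 and 2.50 TPM against 3.65 and 5.26 TPM (0.62 ± 0.15, adjusted p = 0.000368).

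The transporters differed in the size of their change. *Slc7a3* had 101 and 99.5 TPM with DMSO and 5.58 and 5.24 TPM with dTAG13, an 18.3-fold fall (-4.19 ± 0.05, adjusted p = 2.22e-39). *Slc3a2*, the heavy chain shared by several amino acid exchangers and the most abundant transporter gene of the list, had 352 and 357 TPM against 309 and 308 TPM (-0.25 ± 0.02, adjusted p = 2.89e-11). Its light-chain partner for leucine uptake, *Slc7a5*, was lower by -1.07 ± 0.06, the glutamine carrier *Slc38a2* by -0.73 ± 0.03 and the arginine transporter *Slc7a1* by -0.20 ± 0.05, which did not pass without dTAG13 replicate 1 (-0.08). *Slc7a11*, the cystine exchanger, was at 0.11 and 0.08 TPM with DMSO and 0 with dTAG13. Its 25 counts against none are at least 7.72-fold lower, measured against a floor of 3 counts over the group.

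The synthetases were lower by -0.10 (*Iars*) to -1.73 (*Cars*) on the log2 scale, with a median of -0.56. *Cars* had 104 and 98.0 TPM with DMSO and 35.4 and 39.8 TPM with dTAG13 (adjusted p = 4.10e-30), and *Lars*, leucyl-tRNA synthetase, 86.6 and 86.1 TPM against 29.4 and 38.4 TPM (-1.56 ± 0.04, adjusted p = 1.01e-30). *Nars*, the most abundant of the 12, had 466 and 470 TPM against 226 and 225 TPM (-1.11 ± 0.02, adjusted p = 2.81e-32). These 3 were the called synthetases. *Aars* and *Iars*, at -0.12 and -0.10, hold 14.3% of exons in common with *Exosc6* and 14.7% of 31-base words in common with other genes, and neither passed without dTAG13 replicate 1 (-0.05 for both) or without dTAG13 replicate 2 (-0.07 and -0.04). The summed level of the 12 was 1891 to 1896 TPM with DMSO and 1198 to 1220 TPM with dTAG13.

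**Figure D3:**
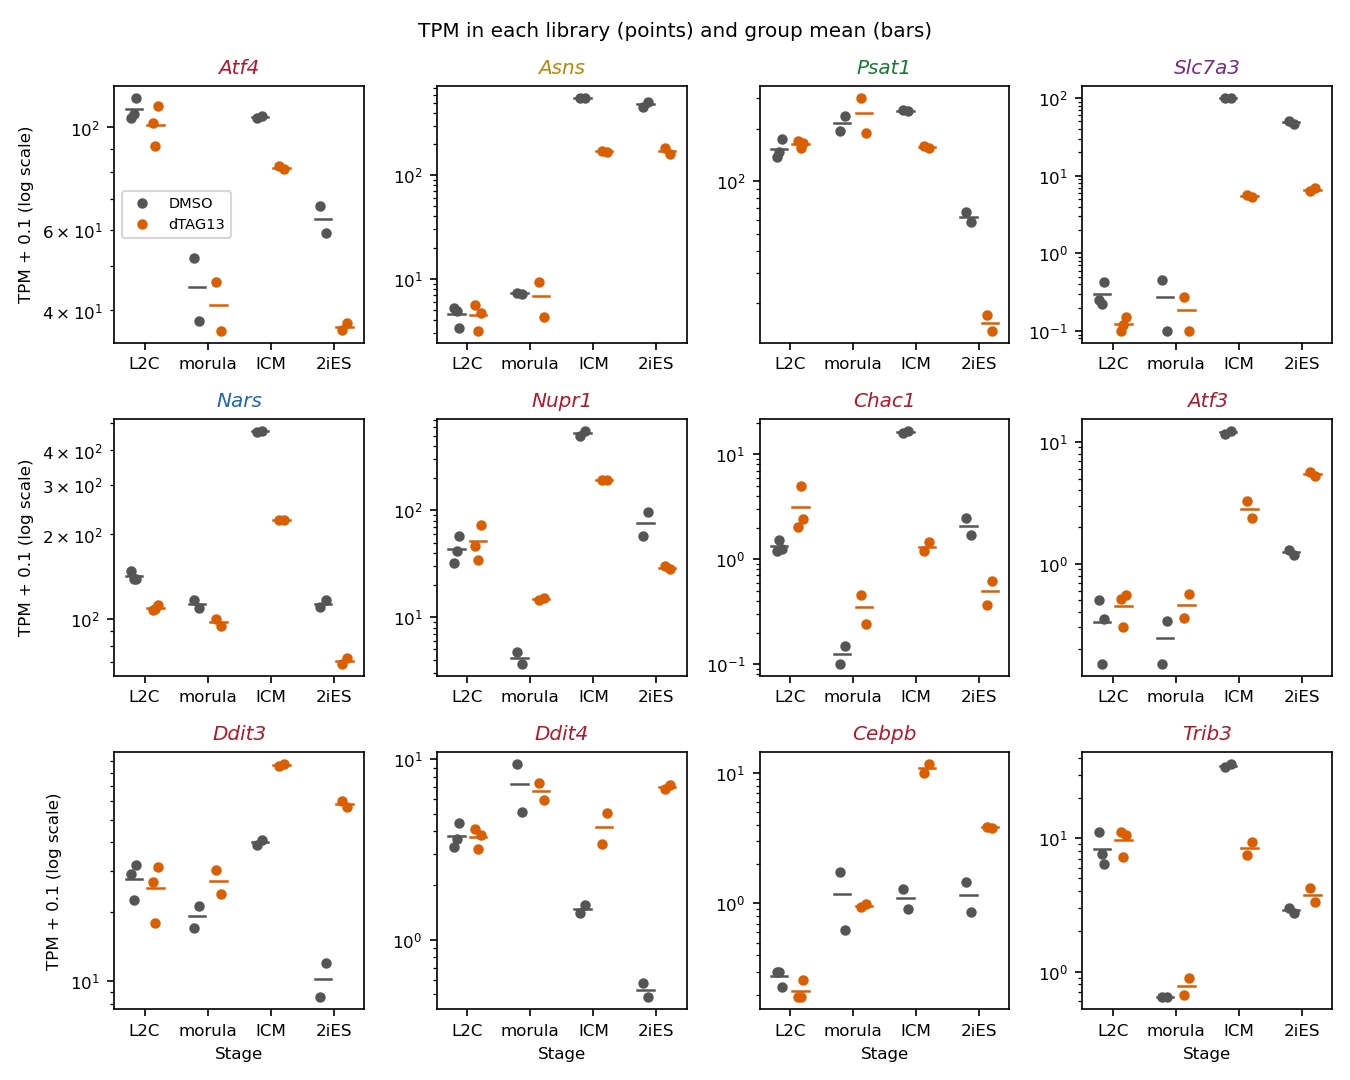
TPM + 0.1 on a log axis in each library (points; bars are group means) with DMSO (grey) and dTAG13 (orange) at the late two-cell stage (L2C), morula, E4.5 ICM and 2iES cells for 12 genes. In the ICM and in 2iES cells the DMSO and dTAG13 points of all 12 genes are apart. *Ddit3*, *Ddit4* and *Cebpb* were higher with dTAG13 in both, and *Atf3* was lower in the ICM and higher in 2iES cells.

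In 2iES cells, 23 of 39 genes tested were lower by adjusted p (59.0%, against 28.1% of all genes) and 5 higher (12.8%, against 26.5%). The called genes were 14 lower (15.6% of all genes) and 4 higher (12.4%). The median log2 fold change was -0.48, against 0.03 over all 15511 genes. By group, the median was -1.65 for the serine and one-carbon enzymes, -0.84 for the other enzymes, -0.68 for the synthetases, 0.02 for the transporters and 0.62 for the stress factors. In a fit of all 18 libraries 25 of these 28 genes passed, with 4 called higher and 13 lower, and *Cth*, *Slc38a2* and *Aars* did not pass. The PrE markers summed to 3.39 to 5.15 TPM with DMSO and 4.54 to 4.95 TPM with dTAG13, and of 5 tested 2 were higher and the other 3 did not pass. The TE markers summed to 967 to 1061 TPM against 1969 to 2025 TPM, most of it from *Fabp3* (920 and 857 TPM against 1830 and 1900 TPM). Of 8 TE markers tested 2 were higher and 1 lower, with *Elf5* at 0 in both DMSO libraries and *Krt18* not passing. The ICM and EPI markers summed to 557 to 666 TPM against 411 to 449 TPM, and of 10 tested 4 were lower, 1 was higher and 5 did not pass. Markers of two-cell embryos varied between libraries, from 7.90 to 44.9 TPM with DMSO and from 31 to 90 TPM with dTAG13, and both cumulus cell markers tested of 7 were higher. The part of these markers in the values of the module was not tested.

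Of the enzymes, 4 of 5 for serine and one-carbon metabolism and 6 of 7 others were lower in 2iES cells. *Psat1* had 66.4 and 58.4 TPM with DMSO and 17.0 and 13.8 TPM with dTAG13 (-2.06 ± 0.14, adjusted p = 9.13e-05). *Phgdh* had 25.5 and 18.5 TPM against 5.60 and 5.23 TPM (-1.94 ± 0.19, adjusted p = 0.000302), with the reservation on shared sequence given above. *Shmt2* had 23.6 and 17.0 TPM against 5.75 and 6.85 TPM (-1.65 ± 0.20, adjusted p = 0.000733). Together with *Mthfd2* (-1.25 ± 0.16), 4 of 5 serine and one-carbon enzymes were called, and *Psph* was at -0.25 ± 0.12 (adjusted p = 0.119).

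Both proline enzymes were lower. *Pycr1* had 10.4 and 6.41 TPM with DMSO and 1.56 and 1.28 TPM with dTAG13 (-2.46 ± 0.27, adjusted p = 0.000499). *Aldh18a1*, which starts proline synthesis from glutamate, had 2.85 and 2.86 TPM against 0.68 and 0.65 TPM (-2.02 ± 0.19, adjusted p = 0.000283). *Asns* had 456 and 512 TPM against 182 and 162 TPM (-1.42 ± 0.11, adjusted p = 0.000156). *Cth*, *Bcat1* and *Got1* passed with -0.38 to -0.84, and *Cbs* was at 0.27 ± 0.20 (adjusted p = 0.286). Neither *Cth* (-0.28 and -0.31) nor *Bcat1* (-0.42 and -0.38) passed without dTAG13 replicate 1 or without dTAG13 replicate 2.

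Transporters differed among themselves. *Slc7a3* had 51.0 and 46.7 TPM with DMSO and 6.19 and 6.88 TPM with dTAG13, a 7.03-fold fall (-2.81 ± 0.13, adjusted p = 2.97e-05). *Slc38a2* went the other way, with 26.3 and 30.1 TPM against 40.5 and 40.2 TPM (0.60 ± 0.11, adjusted p = 0.00459). *Slc3a2* had 143 and 123 TPM against 101 and 98.3 TPM (-0.38 ± 0.11, adjusted p = 0.0261), and did not pass without dTAG13 replicate 1 (-0.31) or 2 (-0.29). *Slc7a5* and *Slc7a1* overlapped between the groups and did not pass (0.15 and 0.02).

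Of the synthetases, 8 of 12 were lower in 2iES cells and 4 were called. *Wars*, tryptophanyl-tRNA synthetase, had 19.0 and 12.1 TPM with DMSO and 3.90 and 4.14 TPM with dTAG13 (-2.08 ± 0.24, adjusted p = 0.000582). *Mars1* was at -1.27 ± 0.13, *Sars* at -1.22 ± 0.13 and *Yars* at -1.06 ± 0.17, all called, though the mean TPM of *Yars* gave -0.51 and that of *Mars1* -0.81. *Nars* had 110 and 116 TPM against 68.5 and 72.3 TPM (-0.90 ± 0.09, adjusted p = 0.000417). *Gars* (-0.62) and *Aars* (-0.40) did not pass without dTAG13 replicate 1 (-0.57 and -0.38) or 2 (-0.50 and -0.26). The 4 that did not pass were *Eprs*, *Iars*, *Cars* and *Lars*, at -0.31 to 0.16.

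Stress factors gave the highest values of the module in 2iES cells. *Ddit4* had 0.48 and 0.38 TPM with DMSO and 6.77 and 7.08 TPM with dTAG13, a 16.9-fold rise (4.08 ± 0.23, adjusted p = 4.98e-05). *Ddit3* had 8.42 and 11.9 TPM against 59.9 and 56.7 TPM (2.57 ± 0.20, adjusted p = 0.000155). *Atf3* had 1.2 and 1.08 TPM against 5.54 and 5.18 TPM (2.30 ± 0.19, adjusted p = 0.000183). *Cebpb* rose as well, from 1.36 and 0.76 TPM to 3.78 and 3.67 TPM (1.89 ± 0.30, adjusted p = 0.00215), which makes 4 factors that were called higher.

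Other stress factors of these cells were lower. *Atf4* had 67.3 and 58.9 TPM with DMSO and 36.1 and 37.4 TPM with dTAG13 (-0.69 ± 0.11, adjusted p = 0.00263), and did not pass without dTAG13 replicate 1 (-0.57). *Chac1* had 2.39 and 1.59 TPM against 0.27 and 0.52 TPM (-2.27 ± 0.40, adjusted p = 0.00350), and *Nupr1* 57.7 and 96.3 TPM against 30 and 28 TPM (-1.28 ± 0.26, adjusted p = 0.00648). *Trib3*, *Cebpg* and *Gdf15* were at 0.49, 0.38 and 0.75 and did not pass, and *Atf5*, *Stc2* and *Vldlr* were too low to be tested.

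The comparisons in the ICM and in 2iES cells share no libraries, although dose and time of treatment differed. Of the 39 genes tested in both, 23 were lower in both (59.0%, against 22.0% of the 13842 genes tested in both) and 3 higher in both (*Ddit3*, *Ddit4* and *Cebpb*, against 15.7%). *Atf3* and *Slc38a2* were lower in the ICM and higher in 2iES cells. A further 8 were lower in the ICM and did not pass in 2iES cells, and 10 genes (25.6%, against 11.6%) were called in both, in either direction. The difference between the effects was tested as an interaction, in which 12 of the 43 genes were called with a higher value in 2iES cells (11.2% of all genes) and 5 with a lower one (10.4%). The difference was 4.49 ± 0.24 for *Atf3* (adjusted p = 5.46e-06) and 2.63 ± 0.22 for *Trib3* (adjusted p = 3.24e-05). In the other direction it was -1.70 ± 0.17 for *Phgdh* and -1.67 ± 0.23 for *Wars*. *Atf4* (-0.24 ± 0.11, adjusted p = 0.0892) and *Nupr1* (0.21 ± 0.30, adjusted p = 0.606) gave no called difference.

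**Figure D4:**
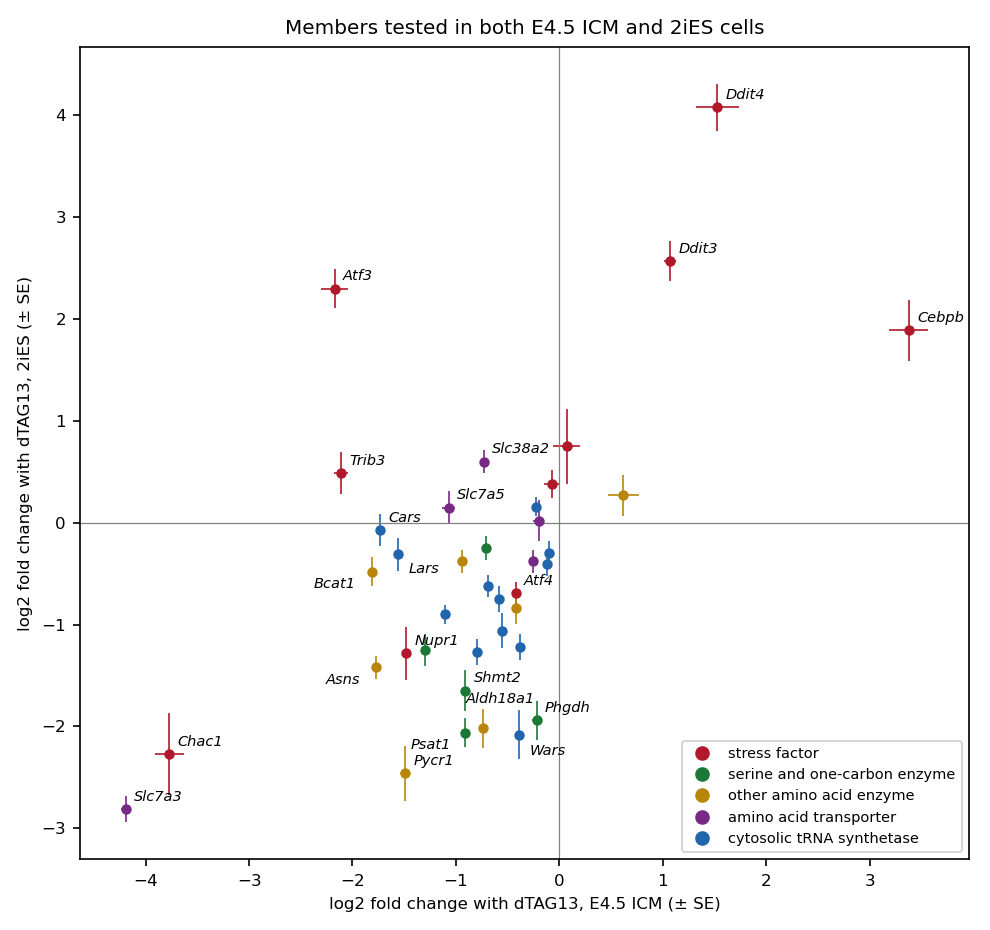
Log2 fold change with dTAG13 in the E4.5 ICM (horizontal) and in 2iES cells (vertical) for the 39 genes tested in both, with SE bars and colour by gene group. Most points lie below and left of both zero lines, *Ddit4*, *Ddit3* and *Cebpb* lie in the upper right, and *Atf3* at -2.17 and 2.30 lies in the upper left.

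Read by promoter, the 14 genes with TGATGNAA in the RefSeq windows were all lower in the ICM, with a median of -1.48, against 15 lower and 4 higher of the 22 genes without it and a median of -0.31. In 2iES cells 9 of the 14 were lower and 1 higher (median -0.80), against 10 lower and 4 higher of the 22 (median -0.32). There, 2 of the 14 and 2 of the 22 were not tested. Over all genes tested in the ICM, 40.3% of those with TGATGNAA and 40.4% of those without it were lower. The 7 genes with CCGGAAG were 6 lower and 1 higher in both ICM and 2iES cells, with medians of -0.69 and -1.22. The 29 genes without it were 23 lower and 3 higher in the ICM (median -0.58) and 13 lower and 4 higher of 25 tested in 2iES cells (median -0.40). With CCGGAAG 0 of 7 were called lower in the ICM, against 10 of the 29 without it, and 4 of 7 against 8 of 25 in 2iES cells. Over all genes, 60.1% of those with CCGGAAG were lower in the ICM against 35.6% of those without it, and 50.6% against 26.1% in 2iES cells. At the late two-cell stage the shares were 26.5% and 4.51%, and of the 7 genes only *Mars1* was lower. A match of letters is a description and shows no binding.

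Genes of the same pathways outside the 43 were read from separate lists, and their counts by adjusted p stand beside 38.5% lower and 38.4% higher of all genes in the ICM, 28.1% and 26.5% in 2iES cells, and 7.25% and 1.32% in late two-cell embryos. Of 11 genes for other cytosolic synthetases and scaffold proteins of the synthetase complex, 10 were lower in the ICM and 10 in 2iES cells, and 4 of 10 tested were lower at the late two-cell stage. The scaffold gene *Aimp1* was higher in the ICM (0.35). *Rars*, arginyl-tRNA synthetase, was called at all 3 (-2.29 ± 0.12, -3.36 ± 0.04 and -2.89 ± 0.12 at late two-cell stage, ICM and 2iES cells). *Hars* was at -2.51 ± 0.15 at the late two-cell stage and *Kars* at -2.61 ± 0.11 in 2iES cells. Of the 5 subunits of eIF2B, the exchange factor that phosphorylated eIF2α blocks, 4 were lower in the ICM and 5 in 2iES cells. *Eif2b2* fell by 1.61, 1.42 and 3.46 on the log2 scale at late two-cell stage, ICM and 2iES cells.

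Regulators upstream of ATF4 moved in both directions. Of 10 genes for eIF2α itself, its kinases, their regulators and the phosphatase, 7 were lower and 3 higher in the ICM, and 4 lower and 1 higher in 2iES cells. *Impact*, an inhibitor of the kinase GCN2, was at -3.05 ± 0.12 in the ICM and -1.15 ± 0.18 in 2iES cells, and *Dele1*, which relays mitochondrial stress, at -1.40 ± 0.18 and -2.06 ± 0.24. *Eif2ak3*, the endoplasmic reticulum kinase PERK, rose by 0.87 ± 0.11 and 1.6 ± 0.19. Of 12 genes of endoplasmic reticulum stress outside ATF4, 6 were higher (50%) and 5 lower (41.7%) in the ICM, and in 2iES cells 6 were lower (50%) and the other 6 did not pass.

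Folate and methionine enzymes outside the 43 were lower in 10 of 13 cases in the ICM (1 higher) and in 5 of 12 in 2iES cells (2 higher). *Tyms*, thymidylate synthase, was at -2.18 ± 0.22, -2.26 ± 0.04 and -3.31 ± 0.12 at late two-cell stage, ICM and 2iES cells, and *Shmt1*, the cytosolic counterpart of *Shmt2*, at -1.59 ± 0.05 and -2.29 ± 0.17 in the last 2. Of 13 other amino acid transporters, 7 were lower (53.8%) and 4 higher (30.8%) in the ICM. The glutamine transporter *Slc1a5* was at -2.13 ± 0.05 there and at -1.63 ± 0.19 in 2iES cells, where 4 of 12 were lower and 3 higher. Of 12 amino acid sensing genes, 6 were higher and 3 lower in the ICM, and of 11 tested 4 were higher and 3 lower in 2iES cells. In the morula none of these genes passed the test.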

How the data were processed

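RNA-seq libraries were made with the SMART-Seq v4 and Nextera XT kits, which do not mark strand. By the methods of the study the authors used Trimmomatic (version 0.39) for trimming, STAR for alignment to GRCm38 and RSEM for gene quantities. The authors deposited, for each library, an expected count, a TPM and an FPKM per gene. Samples of other assays were not analysed here.

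Genes were named from their identifiers (54487 of 55385 matched with their version, 55144 without it). The 43 genes and all lists were chosen with earlier results of these data known. After rounding, expected counts of each stage entered the quasi-likelihood test of edgeR 4.0.16 (limma 3.58.1, R 4.3.3) with TMM factors, leaving out genes that did not reach 10 counts in enough libraries to fill the smaller group. The Benjamini-Hochberg adjustment ran across the genes tested. Called genes had an adjusted p under 0.05, changed at least 2-fold, and had a group mean of 1 FPKM or more on 1 side. Stages in DMSO were compared in 1 fit of all DMSO libraries, and the ICM with 2iES cells by an interaction term. Levels are deposited TPM and fold changes come from counts, so both can differ where the isoforms in use differ. Values of every library are given for genes called with dTAG13 (at most the 10 with the largest change in each direction), for *Atf4* and for the most abundant gene of each group. Up to 3 called genes of each other list are examples. Alternatives changed the scaling, the filter, the thresholds, the tool (DESeq2 1.42.0) and the libraries included. The procedure was tested on simulated data. Python 3.11.15 and pandas 2.3.3 served for tables.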

Additional observations from a re-analysis of the deposited data

Results flagged for a closer look

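The effect of dTAG13 differed between 2iES cells and the E4.5 ICM for 16 of the 43 genes by a test of the difference itself (edgeR quasi-likelihood interaction, adjusted p under 0.05, ratio of fold changes of at least 2, called in at least 1 of both comparisons). By the interaction call alone, 12 of the 43 were higher (11.2% of all genes) and 5 lower (10.4%). The share of all genes under the further condition was not computed. Values are the log2 fold change in 2iES cells minus that in the ICM, with 2 libraries in each group. Among stress factors the difference was 4.49 for *Atf3*, 2.63 for *Trib3*, 2.57 for *Ddit4*, 1.52 for *Ddit3*, 1.51 for *Chac1* and -1.46 for *Cebpb*. It was 6.80 for *Vldlr*, whose 2iES libraries were near 0 in both groups, so that this value rests on few counts. With DMSO and dTAG13 these were 8 and 12 in 2iES cells and 211 and 3 in the ICM. Among enzymes it was -1.70 for *Phgdh*, -1.26 for *Aldh18a1*, -1.13 for *Psat1* and 1.35 for *Bcat1*. The transporters gave 1.4 for *Slc7a3* and 1.24 for *Slc7a5*, and the synthetases 1.67 for *Cars*, 1.26 for *Lars* and -1.67 for *Wars*. Adjusted p ran from 5.46e-06 (*Atf3*) to 0.0190 (*Chac1*). The difference for *Chac1* did not pass without 2iES dTAG13 replicate 2 (0.99), ICM DMSO replicate 2 (1.51) or ICM dTAG13 replicate 1 (1.35), and that for *Cebpb* not without ICM DMSO replicate 2 (-1.19). Dose, time of treatment and cell makeup differed between the ICM and 2iES cells, and their parts cannot be told apart.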

How the results depend on the processing

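The called genes were 3 higher and 15 lower in the ICM and 4 higher and 14 lower in 2iES cells, and alternatives other than dropping the fold threshold kept these counts within 1.5 times. Without the fold threshold 35 were lower in the ICM, 23 in 2iES cells and 5 at the late two-cell stage, 20 were higher from late two-cell to morula, 4 lower from morula to ICM, 3 higher in 2iES cells than in the ICM, and 10 had a lower effect in 2iES cells. Genes higher at the late two-cell stage numbered 2 with DESeq2, 2 in a fit of all 18 libraries, 2 without the count filter and 0 to 1 with 1 library left out. Genes higher in the morula numbered 0 to 1 with 1 library left out, since *Nupr1* (log2 fold change 2.11) lost its call without DMSO replicate 1. Genes higher in 2iES cells than in the ICM numbered 1 without the count filter and 0 to 2 with 1 library left out. The median log2 fold change with library totals only was 0.08 in late two-cell embryos and -0.66 in the ICM, and it was 0.17 in the morula in the fit of all 18 libraries, -0.74 to -0.64 in the ICM and -0.70 to -0.38 in 2iES cells with 1 library left out. With library totals *Bcat1* in 2iES cells against the ICM went from 0.43 to -0.04. In the morula library totals moved the share of called genes that were higher, over all genes, from 43.8% to 31.2%. The causes were not tested, apart from the fewer libraries or the dropped threshold itself.

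Same-numbered libraries were not shown to pair (correlations of their deviations 0.0611 to 0.123 at the late two-cell stage, 0.0376 in the morula, -0.0234 in the ICM and -0.211 in 2iES cells). With a replicate block the called counts were 3 higher and 15 lower in the ICM, 4 and 14 in 2iES cells, 1 and 0 in the morula and 0 and 2 at the late two-cell stage, with 26 genes lower in 2iES cells than in the ICM and 13 with a higher effect in 2iES cells. By adjusted p, *Aars* in 2iES cells (-0.40) did not pass under the block. The crossed pairing of the 2iES libraries, chosen after seeing the data, gave 4 higher and 14 lower.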
